A study of Mus musculus with 8 samples.

Results

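The genes described here code for 10 costimulatory and checkpoint molecules of the contact between a dendritic cell (DC) and a T cell. They were taken by name: Cd80, Cd86, Cd274, Pdcd1lg2, Icosl, Tnfsf4, Tnfsf9, Cd70 and Pvr, which are ligands, and Havcr2, which is a receptor. Each was found in the count table by its Entrez gene ID, so they are 10 of the 27179 gene IDs of the table. All 10 had at least 1 count, and the 10 passed the filter on low counts that left 14238 IDs for testing. Tnfsf4 and Cd70 passed it through cDC libraries alone, since they had no read in pDC.

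RNA sequencing was done on DC sorted from spleens of C57BL/6 mice that carried a leukemia. There were 4 groups: plasmacytoid DC (pDC) after 2 days of panobinostat, pDC after vehicle, conventional DC (cDC) after panobinostat and cDC after vehicle. Panobinostat (LBH589) inhibits histone deacetylases, and the vehicle columns carry the code D5W, a dextrose solution. Each group had 2 libraries, called biological replicates in the labels, and each library came from a pool of 3 to 6 mice. All groups came from leukemia-bearing mice, and the labels do not split cDC into subsets. The labels' text on RNA isolation speaks of sorted leukemia cells, while titles and cell type labels name DC.

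A T cell that meets its antigen on a DC also reads a second set of signals from the DC surface. CD80 and CD86 bind the activating receptor CD28 and the inhibitory receptor CTLA-4, while PD-L1 (Cd274) and PD-L2 (Pdcd1lg2) bind the inhibitory receptor PD-1. ICOS ligand (Icosl) and the TNF family ligands OX40L (Tnfsf4), 4-1BBL (Tnfsf9) and CD70 sustain T cell responses through ICOS, OX40, 4-1BB and CD27. CD155 (Pvr) binds the activating receptor DNAM-1 and the inhibitory receptor TIGIT, and TIM-3 (Havcr2) is an inhibitory receptor that DC themselves carry. cDC are known as the main antigen-presenting DC, and pDC for type I interferon.

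The libraries were checked first. Total counts were 13124861 to 20657429. The summed level of 10 pDC identity genes was 13265 to 22173 depth-scaled counts (CPM) in the pDC libraries and 346 to 499 CPM in the cDC libraries. The 10 cDC markers summed to 7741 to 20466 CPM in pDC and 18326 to 28571 CPM in cDC, which overlapped, with the MHC class II gene H2-Ab1 the main part. Within this list Zbtb46, a transcription factor gene of cDC, had 4.36 and 19.6 CPM in panobinostat pDC and 2.37 and 8.27 CPM in vehicle pDC, and 137 to 200 CPM in the cDC libraries. Xcr1 had 0 to 4.60 CPM in pDC and 257 to 601 CPM in cDC, and Clec4a4 0 to 1.19 CPM in pDC and 86.7 to 129 CPM in cDC. Clec9a overlapped between the cell types, and Cd209a was higher in pDC (7.62-fold in vehicle, adjusted p = 0.0116). The summed level was 3068 to 3682 CPM in pDC and 594 to 2104 CPM in cDC for 10 B cell markers, with Ighm the main part, and 2582 to 7601 CPM in pDC and 745 to 978 CPM in cDC for 10 macrophage and monocyte markers, with Ly6c2 the main part in pDC. The 8 neutrophil markers summed to at most 73.6 CPM, and the 8 myeloid progenitor markers to 6.41 to 56.3 CPM in pDC and 260 to 401 CPM in cDC. The part of other cells in the differences between pDC and cDC was not tested. Replicate 2 of panobinostat pDC stood apart: 10745 genes had a count there, against 14927 to 19950 in the other 7 libraries. Of 2396 genes with 200 to 500 counts in replicate 1 of panobinostat pDC, 379 (15.8%) had 0 counts in replicate 2, against 2 of 2320 in vehicle pDC and at most 1 in each cDC group. Cd274, Pvr, Tnfsf9 and Pdcd1lg2 were among the genes at 0 in that library. A floor of 3 counts there is 0.279 CPM, but it covers counting error only and does not bound the level. Values of the members in panobinostat pDC are therefore also given without that library. With only 2 libraries a group, p values rest on a spread between pools of mice that is shared over all 4 groups. Replicate 2 of panobinostat pDC thus enters the error of every test, also those in vehicle and in cDC. In vehicle, 9.73% of genes differed between pDC and cDC at an adjusted p under 0.05 in the shared fit, and 32.8% with the vehicle libraries alone. Fewer cells of a type and less RNA per cell cannot be told apart.

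The promoters of 5 of the 10 genes were in the RefSeq table used here (build GRCm38.p6, the 250 bases before the start). Those of the PD-1 ligand genes are shown because Cd274 and Pdcd1lg2 are neighbours on chromosome 19 with different profiles in the libraries. Cd274 spans bases 29362107 to 29388095, Pdcd1lg2 spans 29410919 to 29472927, and no annotated gene lies in the 22823 bases between them. The promoter of Havcr2, on chromosome 11 from 46454931 to 46481255, is shown because this gene gave the most stable difference between pDC and cDC. Both strands were searched for GAAANNGAAA (the core of an interferon response element), TTCNNNGAA (STAT), GGGNNTTTCC (NF-kB), TGANTCA (AP-1) and GAGGAA (PU.1). Capitals mark matches.
Cd274 (chr19:29367188-29367437, + strand): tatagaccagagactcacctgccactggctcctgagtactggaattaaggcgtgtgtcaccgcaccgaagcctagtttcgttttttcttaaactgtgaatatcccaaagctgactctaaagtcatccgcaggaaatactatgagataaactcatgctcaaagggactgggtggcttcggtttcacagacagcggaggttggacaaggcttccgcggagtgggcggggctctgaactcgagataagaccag
Pdcd1lg2 (chr19:29410669-29410918, + strand): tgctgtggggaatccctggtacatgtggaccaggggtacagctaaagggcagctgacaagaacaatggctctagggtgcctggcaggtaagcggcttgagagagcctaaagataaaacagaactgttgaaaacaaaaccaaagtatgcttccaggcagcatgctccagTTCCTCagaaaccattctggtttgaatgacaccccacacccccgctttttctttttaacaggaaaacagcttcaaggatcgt
Havcr2 (chr11:46454681-46454930, + strand): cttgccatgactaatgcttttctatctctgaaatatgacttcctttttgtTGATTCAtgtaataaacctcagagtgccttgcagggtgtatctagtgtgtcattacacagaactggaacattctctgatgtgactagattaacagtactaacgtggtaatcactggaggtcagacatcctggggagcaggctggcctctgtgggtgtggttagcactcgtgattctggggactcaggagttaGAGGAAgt
The Cd274 window, which lies inside the annotated gene span, and the Icosl window held none of the 5 motifs. The Pdcd1lg2 window held the PU.1 letters on the minus strand, 82 bases before the start. Havcr2 held the AP-1 letters 200 bases and the PU.1 letters 8 bases before its start. The Cd80 window, which also lies inside its annotated gene span, held the AP-1 letters TGATTCA 42 bases before the start used for that window. Among 27025 RefSeq promoters, 6.87% held the AP-1 letters, 23.1% the PU.1 letters, 3.04% the interferon element, 7.18% the STAT letters and 1.4% the NF-kB letters. A match is a description of these letters only.

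The first comparison asked how pDC differ from cDC in these transcripts. Of the 8 members with reads in pDC, Cd86, Pdcd1lg2, Icosl and Havcr2 were lower in pDC, in panobinostat as in vehicle, and the other 4 did not pass the test in either. Tnfsf4 and Cd70, of which Cd70 passed under panobinostat, are left out of these counts, since they entered the tested set through the cDC libraries and could only be lower in pDC. Under panobinostat, 7 of the 8 genes, all but Pvr, had every pDC library below every cDC library, where 38% of all tested genes did and 24.7% had pDC above cDC. In vehicle the same 7 genes did so, against 35.5% of all tested genes below and 35.1% above. A gene passed when its p value, adjusted over all 14238 genes, was under 0.05. Under panobinostat 18% of genes passed (7.76% higher and 10.2% lower in pDC), and in vehicle 9.73% (5.01% higher and 4.71% lower). The median log2 fold change of the 8 genes, pDC against cDC, was -3.13 under panobinostat and -2.84 in vehicle. The median of all genes was -0.18 under panobinostat and 0.02 in vehicle. The 2 comparisons use different libraries but share their estimate of the spread.

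**Figure D1:**
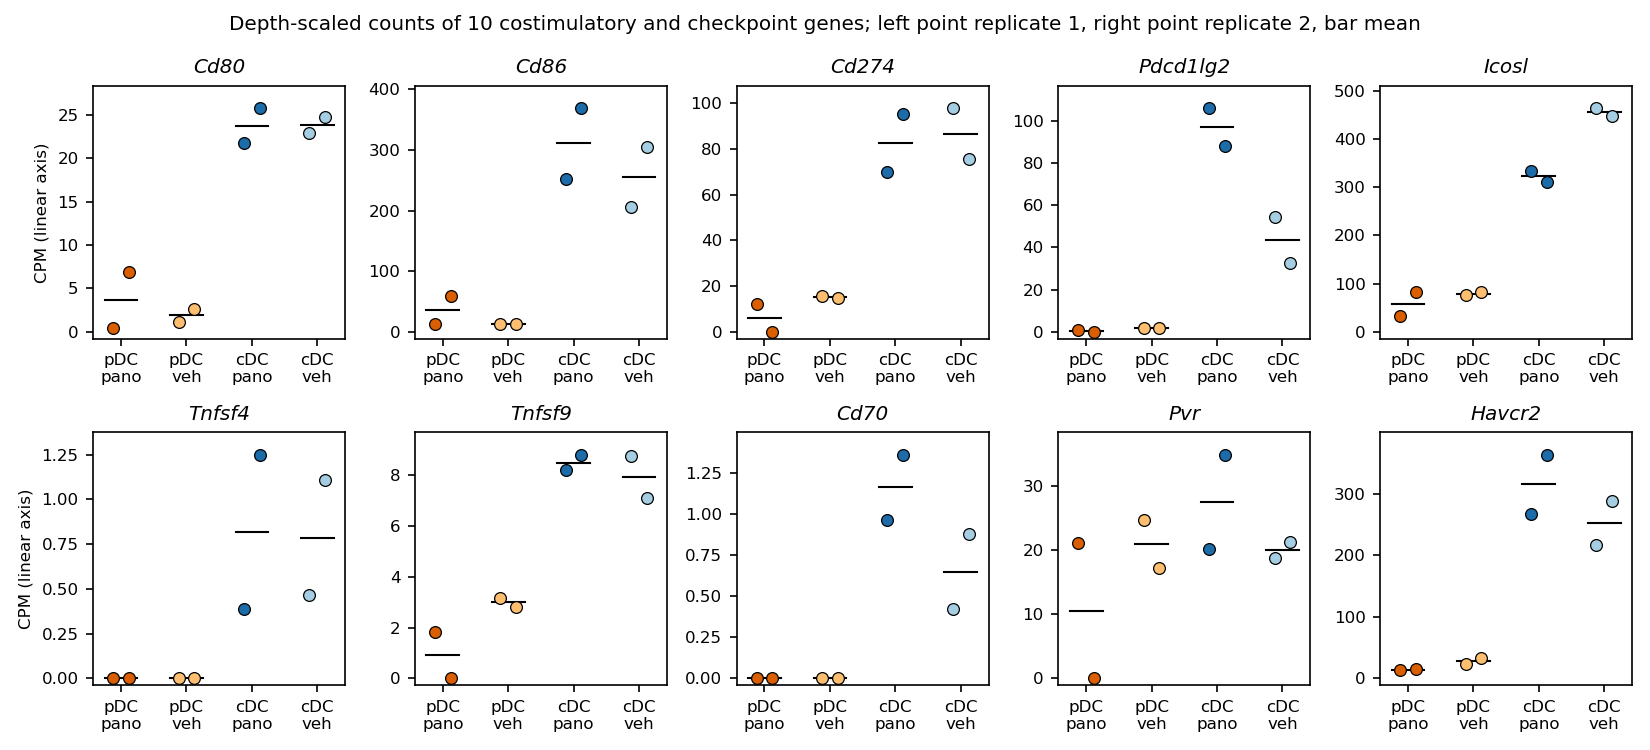
Depth-scaled counts (CPM, linear axes that differ between panels) of the 10 genes in panobinostat pDC, vehicle pDC, panobinostat cDC and vehicle cDC. Points are libraries and bars are group means. The 9 panels other than Pvr have all pDC points below all cDC points. Of these, Tnfsf4 and Cd70 had 0 counts in pDC, passed the filter through cDC and could only be lower. Of all tested genes, 38% had pDC below cDC under panobinostat and 35.5% in vehicle.

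Of the CD28 and CTLA-4 ligands, Cd86 (chromosome 16, 36568956 to 36666158) was the more abundant per kilobase of exon in every library. It had 12.9 and 59.5 CPM in panobinostat pDC and 12.96 and 13.1 CPM in vehicle pDC. In cDC it had 253 and 369 CPM with panobinostat and 206 and 305 CPM with vehicle. The pDC libraries lay far below the cDC libraries, with replicate 2 of panobinostat pDC the highest of the pDC. Cd86 was lower in pDC by 8.63-fold under panobinostat (log2 fold change -3.11 ± 0.70 SE, adjusted p = 0.0317) and by 19.6-fold in vehicle (-4.29 ± 0.74, adjusted p = 0.0196). The panobinostat value was -4.65 without replicate 2 and -2.39 without replicate 1 of panobinostat pDC.

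Cd80 (chromosome 16, 38457430 to 38495958) had 0.446 and 6.87 CPM in panobinostat pDC and 1.16 and 2.65 CPM in vehicle pDC. The cDC values were close together, 21.7 and 25.8 CPM with panobinostat and 22.9 and 24.7 CPM with vehicle. Although no pDC library reached a cDC library, the differences did not pass the test, with log2 fold changes of -2.71 ± 1.17 under panobinostat (adjusted p = 0.158) and -3.64 ± 1.22 in vehicle (adjusted p = 0.127). The panobinostat value passed at -5.77 without replicate 2 (adjusted p = 0.00191) and at -1.79 without replicate 1 of panobinostat pDC (adjusted p = 0.0167). Per kilobase of exon, Cd86 exceeded Cd80 by 11.8 and 14.5 times in the panobinostat cDC libraries and by 9.08 and 12.5 times in the vehicle cDC libraries. In pDC this ratio rested on few Cd80 reads (9 and 74 counts with panobinostat, 23 and 49 with vehicle) and spanned 5.02 to 29.2.

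The PD-1 ligands differed from each other. Cd274 had 12.1 and 0 CPM in panobinostat pDC and 15.7 and 14.9 CPM in vehicle pDC, against 69.96 and 95.02 CPM in panobinostat cDC and 97.7 and 75.5 CPM in vehicle cDC. Its cDC levels overlapped between treatments, and the pDC levels lay below all of them. The difference between cell types did not pass (log2 fold change -3.74 ± 1.59, adjusted p = 0.152 under panobinostat, and -2.50 ± 1.51, adjusted p = 0.397 in vehicle). Without replicate 2 of panobinostat pDC, where Cd274 was at 0, the panobinostat value was -2.83 and passed (adjusted p = 0.00168). Reads of Cd274 and of a gene on the other strand that overlaps its exons cannot be told apart, since the strand setting of the counting is not given.

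Pdcd1lg2 had 0.942 and 0 CPM in panobinostat pDC (19 and 0 counts) and 1.61 and 1.73 CPM in vehicle pDC (32 and 32 counts). In cDC it had 106 and 88.1 CPM with panobinostat and 54.7 and 32.8 CPM with vehicle. Among members with reads in pDC it had the widest gap between the cell types: 184-fold lower in pDC under panobinostat (log2 fold change -7.53 ± 1.23, adjusted p = 0.0133) and 26.1-fold lower in vehicle (-4.70 ± 1.07, adjusted p = 0.0446). The panobinostat fold includes the 0 of replicate 2, and without that library the log2 fold change was -6.74. With a block for the replicate number the vehicle value did not pass (-4.60, adjusted p = 0.0631). The ratio of Pdcd1lg2 to Cd274 per kilobase was 2.80 and 1.71 in the panobinostat cDC libraries and 1.03 and 0.803 in the vehicle cDC libraries. In pDC it was 0.144 in the panobinostat library that had reads of both, and 0.190 and 0.214 in vehicle, so PD-L1 transcripts prevailed in pDC and in cDC the pair was near parity or tilted to PD-L2.

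Icosl (chromosome 10, 78069368 to 78079525), the ligand of ICOS, was the member with the highest mean length-scaled level in pDC of either treatment. It had 32.4 and 83.0 CPM in panobinostat pDC and 75.8 and 82.1 CPM in vehicle pDC. In cDC it had 335 and 310 CPM with panobinostat and 464 and 447 CPM with vehicle. pDC were lower by 5.60-fold under panobinostat (log2 fold change -2.48 ± 0.42, adjusted p = 0.0149) and by 5.77-fold in vehicle (-2.53 ± 0.42, adjusted p = 0.0181). Without replicate 2 of panobinostat pDC the panobinostat value was -3.37, and without replicate 1 it was -1.96.

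Among the TNF family ligands, Tnfsf4 and Cd70 had 0 counts in all 4 pDC libraries and few in cDC. Tnfsf4 (chromosome 1, 161395438 to 161418206) had 8 and 23 counts in panobinostat cDC and 10 and 24 in vehicle cDC, at most 1.25 CPM. Against a floor of 3 counts over the pDC group, it was at least 8.17-fold lower in pDC under panobinostat and at least 10.1-fold lower in vehicle. Cd70 (chromosome 17, 57145997 to 57149777) had 20 and 25 counts in panobinostat cDC and 9 and 19 in vehicle cDC. It was at least 11.9-fold lower in pDC under panobinostat and at least 8.29-fold lower in vehicle. These bounds describe the libraries, since the filter that admitted both genes fixed the direction.

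Tnfsf9 (chromosome 17, 57105287 to 57107758), the neighbour of Cd70 with 38238 bases and no annotated gene between them, was read in pDC. It had 1.83 and 0 CPM in panobinostat pDC and 3.18 and 2.81 CPM in vehicle pDC. The cDC libraries had 8.20 and 8.80 CPM with panobinostat and 8.76 and 7.11 CPM with vehicle. All pDC libraries lay below the cDC libraries, but the difference did not pass (log2 fold change -3.16 ± 1.49, adjusted p = 0.187 under panobinostat, and -1.40 ± 1.39, adjusted p = 0.658 in vehicle). The panobinostat value was -2.27 without replicate 2 of panobinostat pDC and passed (adjusted p = 0.00613). Tnfsf9 exons also overlap a gene on the other strand, so its counts carry the same uncertainty as those of Cd274.

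Pvr (chromosome 7, 19903578 to 19921143) was the exception of the panel. It had 21.1 and 0 CPM in panobinostat pDC and 24.6 and 17.2 CPM in vehicle pDC, against 20.2 and 34.8 CPM in panobinostat cDC and 18.8 and 21.3 CPM in vehicle cDC. The cell types overlapped in both treatments. The log2 fold change, pDC against cDC, was -1.38 ± 1.75 under panobinostat (adjusted p = 0.624) and 0.06 ± 1.72 in vehicle (adjusted p = 0.994), and its wide error does not show that the levels are alike. Without replicate 2 of panobinostat pDC the panobinostat value was -0.44 (adjusted p = 0.385). The sign of the vehicle value turned under another scaling (-0.06 with RLE scaling).

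Havcr2, which codes for TIM-3, had 13.4 and 15.1 CPM in panobinostat pDC and 23.6 and 33.4 CPM in vehicle pDC. The cDC libraries had 268 and 363 CPM with panobinostat and 217 and 288 CPM with vehicle. pDC were lower by 22.1-fold under panobinostat (log2 fold change -4.46 ± 0.31, adjusted p = 0.00129) and by 8.86-fold in vehicle (-3.15 ± 0.29, adjusted p = 0.00269). It was the member that passed the test in both comparisons under all 15 alternatives, with log2 fold changes of -4.68 to -4.24 under panobinostat and -3.46 to -2.91 in vehicle.

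The calls of the other members depended on the libraries in the fit. Under panobinostat, all 8 members with reads in pDC passed without replicate 1 of panobinostat pDC, in a fit that called 65.9% of all genes, and 7 passed without replicate 2, where 36.1% of all genes did. With replicate 1 or replicate 2 of panobinostat cDC left out Havcr2 passed alone, and with any 1 of the 4 vehicle libraries left out Pdcd1lg2, Icosl and Havcr2 did. In vehicle, the 7 members other than Pvr passed without replicate 1 of panobinostat pDC, where 37.2% of all genes did, and without replicate 2, where 36.1% did. Leaving out any other library left Havcr2 as the member called in vehicle, among 1.92% to 3.68% of all genes. A fit to the 4 panobinostat libraries alone called Havcr2 and 1.21% of all genes, and a fit to the 4 vehicle libraries alone called 7 of the 8 members and 32.8% of all genes.

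Levels of different genes were compared per kilobase of exon. In vehicle cDC the order was Icosl (98.6 CPM per kilobase), Havcr2 (92.8) and Cd86 (69.7), followed by Cd274 (23.9) and Pdcd1lg2 (22.3), then Cd80 (6.44), Tnfsf9 (6.15) and Pvr (3.27), with Cd70 (0.770) and Tnfsf4 (0.427) last. Icosl and Havcr2, Havcr2 and Cd86, Cd274 and Pdcd1lg2, Cd80 and Tnfsf9, and Cd70 and Tnfsf4 overlapped between their libraries. In panobinostat cDC, Havcr2 (116 CPM per kilobase), Cd86 (84.9) and Icosl (69.8) led. Pdcd1lg2 (49.5) stood apart from Cd274 (22.8), where the pair overlapped in vehicle. The order in vehicle pDC was Icosl (17.1 CPM per kilobase), Havcr2 (10.5), Cd274 (4.23), Cd86 (3.56), Pvr (3.42), Tnfsf9 (2.32), Pdcd1lg2 (0.853) and Cd80 (0.514), and only Cd86 and Pvr overlapped among these neighbours. In panobinostat pDC Icosl (12.5 CPM per kilobase), Cd86 (9.88) and Havcr2 (5.25) were the highest. Libraries of neighbouring genes overlapped there except between Havcr2 and Pvr (1.72).

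**Figure D2:**
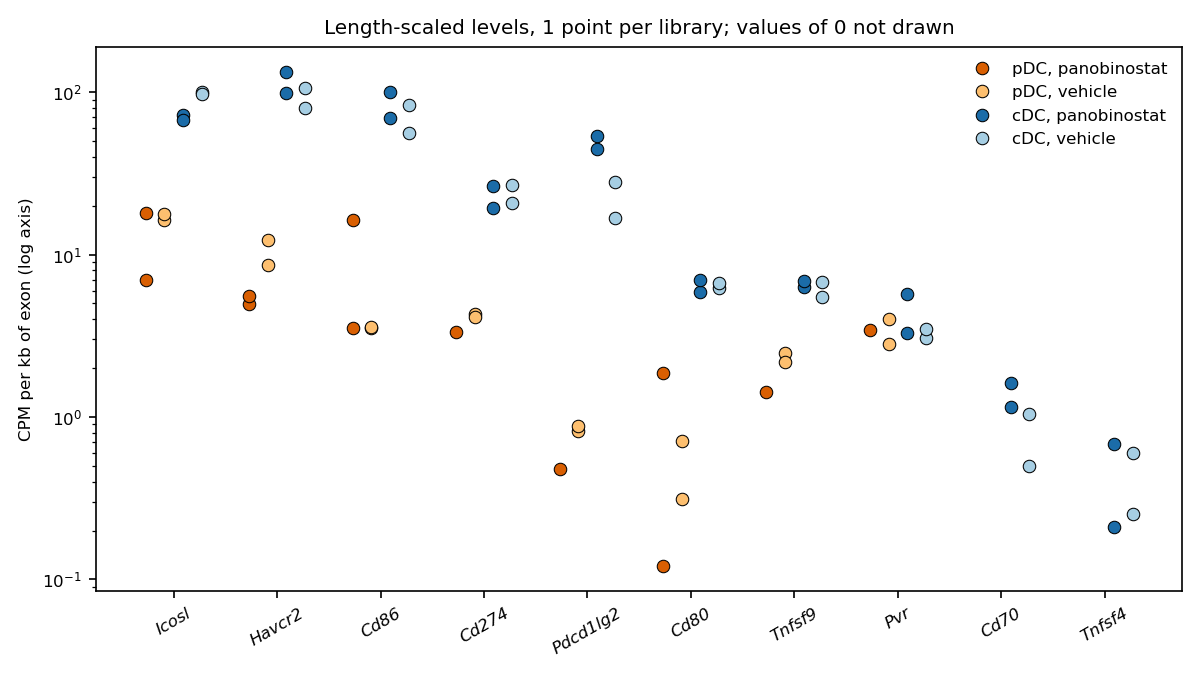
Levels of the 10 genes as CPM per kilobase of exon (log axis) in each library, with 4 columns per gene for panobinostat pDC, vehicle pDC, panobinostat cDC and vehicle cDC. Values of 0 are not drawn. Pvr has pDC and cDC points at the same height, and Tnfsf4 and Cd70 have cDC points alone.

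The second comparison asked what 2 days of panobinostat did to these transcripts in pDC. None of the 10 genes passed the test, where 0.0913% of all genes (13) did, or 0 with the replicate block. DESeq2 called 0 members, among 914 genes (6.42%). Without adjustment 14.9% of all genes had p under 0.05 in edgeR, and of the members Havcr2 did. In 4 members both panobinostat libraries lay below both vehicle libraries (Cd274, Pdcd1lg2, Tnfsf9 and Havcr2), and in none above, where 26.5% of all genes lay below and 15.7% above. Cd274, Pdcd1lg2 and Tnfsf9 were at 0 in replicate 2 of panobinostat pDC, the library that stood apart. In replicate 1 they were at 0.771, 0.584 and 0.577 times the level of vehicle replicate 1.

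Havcr2 was at 0.569 and 0.453 times its vehicle level in the same-number replicates of pDC. The log2 fold change was -0.997 ± 0.27 (unadjusted p = 0.00973, adjusted p = 0.215), and -1.14 without replicate 2 of panobinostat pDC (adjusted p = 0.117). It was negative in all 16 alternatives and was called in none of them.

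Cd86 and Cd80 had their highest pDC levels in replicate 2 of panobinostat pDC. The log2 fold change of Cd86 was 1.46 ± 0.67 with both replicates (adjusted p = 0.366), -0.07 without replicate 2 and 2.18 without replicate 1. That of Cd80 was 0.93 ± 1.13 (adjusted p = 0.721), -2.13 without replicate 2 and 1.85 without replicate 1. The cDC markers had their highest sum of the pDC libraries in that replicate, 20466 CPM, of which H2-Ab1 made up 17380 CPM. Zbtb46 was at 19.6 CPM and Batf3 at 19.0 CPM there, against at most 8.27 and 1.49 CPM in the other pDC libraries. Clec9a, Cd209a and Sirpa were also highest there, and Xcr1, Clec4a4, Flt3 and Itgax were not. Xcr1 was at 0, and Itgax was at 206 CPM, against 222 and 266 CPM in vehicle pDC. The summed level of 10 NK cell markers was 596 and 1338 CPM in panobinostat pDC and 180 and 277 CPM in vehicle pDC, with Klrd1 at 407 and 832 CPM against 156 and 230 CPM. Of these 10 markers 7, Ncr1 and Gzma among them, were at 0 in replicate 2 of panobinostat pDC. The summed level of 10 T cell markers was 560 and 797 CPM in panobinostat pDC and 1108 and 1687 CPM in vehicle pDC. Of this Cd4, a gene that pDC also express, had 272 and 280 CPM with panobinostat and 690.5 and 795 CPM with vehicle. Cd8b1 had 197 and 387 CPM with panobinostat and 374 and 858 CPM with vehicle. Cd28 and Lck went the other way, Lck with 10.3 and 46.3 CPM against 3.63 and 3.73 CPM. The part of such cells in the values of the members was not tested.

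For Icosl the pDC value was -0.45 ± 0.40 on the log2 scale (adjusted p = 0.61). The replicates disagreed: replicate 1 was at 0.428 times and replicate 2 at 1.01 times the vehicle level of the same number. Without replicate 2 the value was -1.34 ± 0.19 and passed the test (adjusted p = 0.0229), in a fit that called 719 genes (4.78%). Without replicate 1, 8227 genes and 6 members passed, so the calls in pDC rest on which panobinostat replicate enters the fit. Those 6 were Cd80 and Cd86, higher, and Cd274, Pdcd1lg2, Tnfsf9 and Pvr, lower, with 0 counts in replicate 2. With both replicates Pvr stood at -0.98 ± 1.74 log2 units (adjusted p = 0.814).

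In cDC, too, none of the 10 genes passed, and of all genes 0% did. DESeq2 called 15 genes, none of them a member, and 206 genes (1.45%) had an unadjusted p under 0.05 in edgeR. Pdcd1lg2 and Cd70 had their panobinostat libraries above those of vehicle, where 22.2% of all genes did, and Icosl had them below, where 18.8% did.

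Pdcd1lg2 averaged 97.0 ± 12.6 CPM in panobinostat cDC and 43.7 ± 15.4 CPM in vehicle cDC (SD, n = 2 each). In the same-number replicates the panobinostat level was 1.94 and 2.68 times the vehicle level. The log2 fold change was 1.15 ± 0.92 (adjusted p = 1). Fitted to the cDC libraries alone, its error was smaller (1.13 ± 0.28, unadjusted p = 0.0121, adjusted p = 0.43), and with the replicate block added it was 1.17 ± 0.14 (adjusted p = 0.0573). The last fit was chosen after seeing the data, called 106 genes and did not call Pdcd1lg2.

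Icosl averaged 322 ± 17.4 CPM in panobinostat cDC and 455 ± 11.9 CPM in vehicle cDC (SD, n = 2 each). It stood at 0.722 and 0.694 times the vehicle level in the same-number replicates. The log2 fold change was -0.50 ± 0.40 (adjusted p = 1). In the cDC libraries alone it was -0.52 ± 0.12 (unadjusted p = 0.00889, adjusted p = 0.413), and -0.52 ± 0.07 with the replicate block (adjusted p = 0.0654).

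Havcr2 was at 1.23 and 1.26 times and Cd86 at 1.23 and 1.21 times the vehicle level in the same-number cDC replicates, with log2 fold changes of 0.32 ± 0.27 and 0.28 ± 0.64. In both genes the panobinostat and vehicle libraries overlapped. Cd70 was at 2.30 and 1.55 times its vehicle level on 20 and 25 against 9 and 19 counts (log2 fold change 0.83 ± 0.85). Cd80, Cd274, Tnfsf4 and Tnfsf9 had log2 fold changes between -0.07 and 0.10, with errors above 1, and Pvr 0.46 ± 1.72. The adjusted p of each of these genes was 1.

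In the cDC libraries the summed levels of all marker lists, except macrophages and monocytes, did not overlap between the treatments. The B cell sum was lower and the other sums without overlap were higher with panobinostat, but no marker passed the test. Of all single genes, 22.2% lay above and 18.8% below vehicle without overlap. The summed level of 10 B cell markers was 594 and 888 CPM in panobinostat cDC and 1073 and 2104 CPM in vehicle cDC, with all 10 detected in each library. Ighm was the main part, at 475 and 597 CPM with panobinostat and 928 and 1616 CPM with vehicle. Ms4a1 (62.5 and 146 against 25.2 and 136 CPM) and Cr2 went the other way in the same-number replicates. The summed level of 10 NK cell markers was 217 and 480 CPM in panobinostat cDC and 148 and 198 CPM in vehicle cDC. Ncr1 had 1.45 and 43.1 CPM with panobinostat and 0.280 and 6.42 CPM with vehicle, so its replicates lay far apart in each treatment. B cells also carry ICOS ligand, CD80 and CD86. The part of these cells in the values of Icosl and the other members was not tested.

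**Figure D3:**
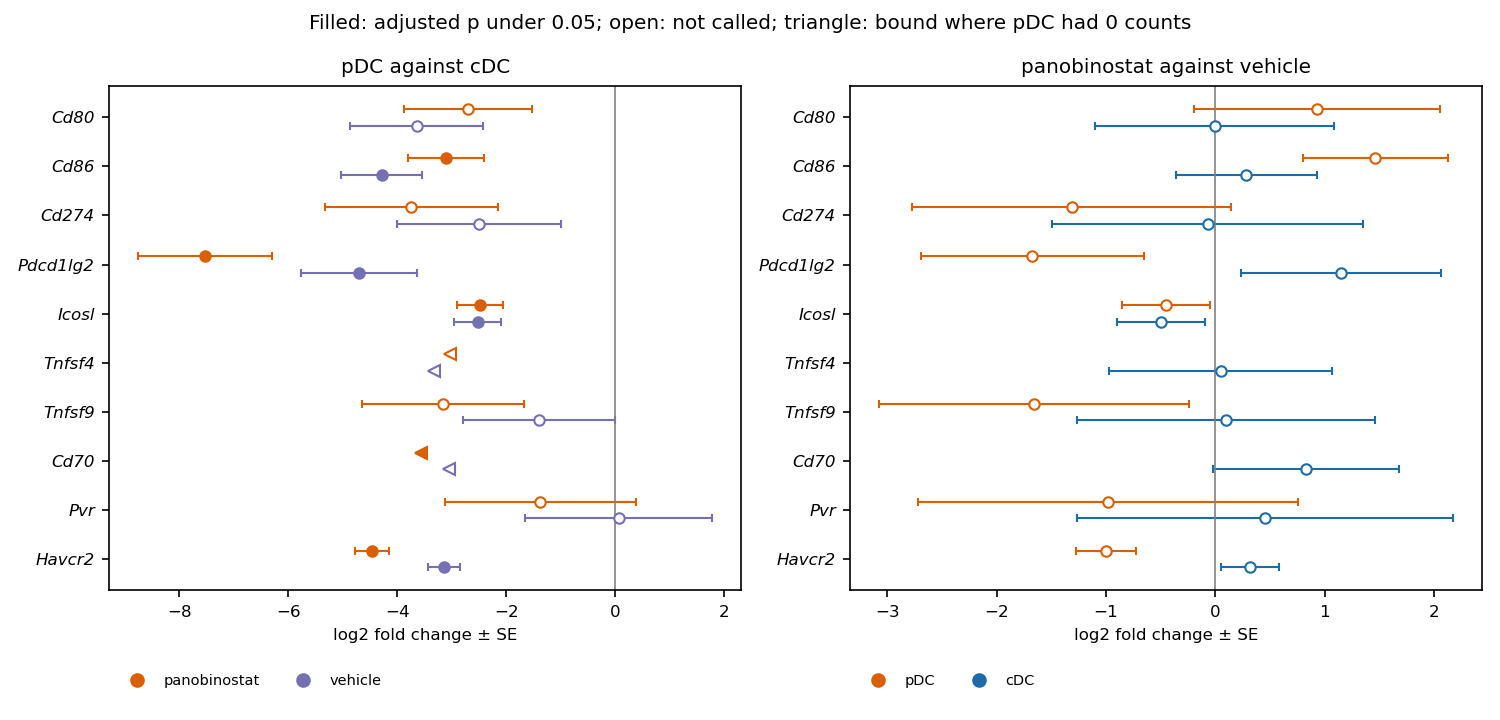
Log2 fold changes ± SE of the 10 genes, pDC against cDC (left) and panobinostat against vehicle (right). Filled symbols passed at an adjusted p under 0.05, and triangles are bounds for genes with 0 counts in pDC. Symbols of Cd86, Pdcd1lg2, Icosl and Havcr2 are filled in both rows of the left panel, and none is filled in the right panel.

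The third comparison set the panobinostat effect in pDC against that in cDC. None of the members passed, where 1 gene (0.00702%) did, and DESeq2 called 290 genes and 0 members. Without adjustment 7.77% of all genes had p under 0.05, Havcr2 among them. The difference of effects was -1.32 ± 0.38 log2 units for Havcr2 (unadjusted p = 0.0124, adjusted p = 0.44), and it was negative in all 14 alternatives. For Pdcd1lg2 it was -2.82 ± 1.37 (adjusted p = 0.709), and -2.01 without replicate 2 of panobinostat pDC. For Cd86 it was 1.18 ± 0.92 (adjusted p = 0.828), and -0.34 without that library. Without replicate 1 of panobinostat pDC 6 members passed, those named above for pDC, in a fit that called 6457 genes. No value was formed for Tnfsf4 and Cd70, which had 0 counts in pDC.

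The wider pathway was read from 4 lists. Of 17 tested other costimulatory molecules of antigen-presenting cells, 0 were higher and 3 lower in vehicle pDC than in vehicle cDC, where 5.01% of all genes were higher and 4.71% lower. Cd83, a maturation marker of DC, was 103-fold lower in pDC (log2 fold change -6.68 ± 0.78, adjusted p = 0.00514), at 12.4 ± 2.82 CPM in pDC and 1271 ± 114 CPM in cDC (SD, n = 2 each). Cd40, the receptor of CD40 ligand, was lower by 8.84-fold (adjusted p = 0.0368), at 12.3 ± 5.47 CPM in pDC and 109 ± 17 CPM in cDC. Tnfsf14, which codes for LIGHT, had 0 counts in pDC, entered the tested set through cDC alone, and was at least 45.9-fold lower. Under panobinostat 1 of the 17 was higher and 8 were lower in pDC, where 7.76% of all genes were higher and 10.2% lower. Icam2, an adhesion ligand of LFA-1, was higher by 5.23-fold (adjusted p = 0.0336), with a log2 fold change of 1.49 without replicate 2 of panobinostat pDC against 2.39 with it. Cd83, Icam1, Sema4a, Sema4d, Slamf7, Tnfsf14, Tnfsf15 and Timd4 were lower. Of these, Tnfsf14 and Tnfsf15 had 0 counts in panobinostat pDC, entered the tested set through cDC alone and could only be lower. Timd4, which codes for a phosphatidylserine receptor, had 0 counts in panobinostat pDC and was at least 267-fold lower (adjusted p = 0.012). The median log2 fold change of this list, with Tnfsf14 and Tnfsf15 included, was -1.48 under panobinostat and -1.97 in vehicle.

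The other inhibitory molecules did not follow that direction. Of 18 tested, 5 were higher and 3 lower in vehicle pDC than in vehicle cDC, beside 5.01% and 4.71% of all genes, with a median log2 fold change of -0.08. The higher ones were Ceacam1 (11.2-fold, adjusted p = 0.00226), Cd200r1 (3.36-fold, adjusted p = 0.0272), Lgals9 (3.15-fold, adjusted p = 0.0144), Cd200 (2.25-fold, adjusted p = 0.0215) and Cd47 (1.98-fold, adjusted p = 0.0184). CEACAM1 and galectin-9, the product of Lgals9, are described as binding partners of TIM-3, whose gene Havcr2 was lower in the same pDC. CD47 signals against uptake through SIRPα, and CD200 binds the inhibitory receptor CD200R1. The lower ones were Nectin1 (116-fold, adjusted p = 0.00679), Lilrb4a (4.07-fold, adjusted p = 0.0246) and Btla (2.97-fold, adjusted p = 0.0196). Under panobinostat 6 were higher and 4 lower in pDC, beside 7.76% and 10.2% of all genes, with a median of -0.47. These were the same 5 and Clec2d higher, and the same 3 and Btn2a2 lower. Btn2a2 (0 counts in panobinostat pDC) and Nectin1 (0 and 1 counts) entered the tested set through cDC and could only be lower. The same holds for Nectin1 in vehicle, with 5 and 13 counts in pDC.

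**Figure D4:**
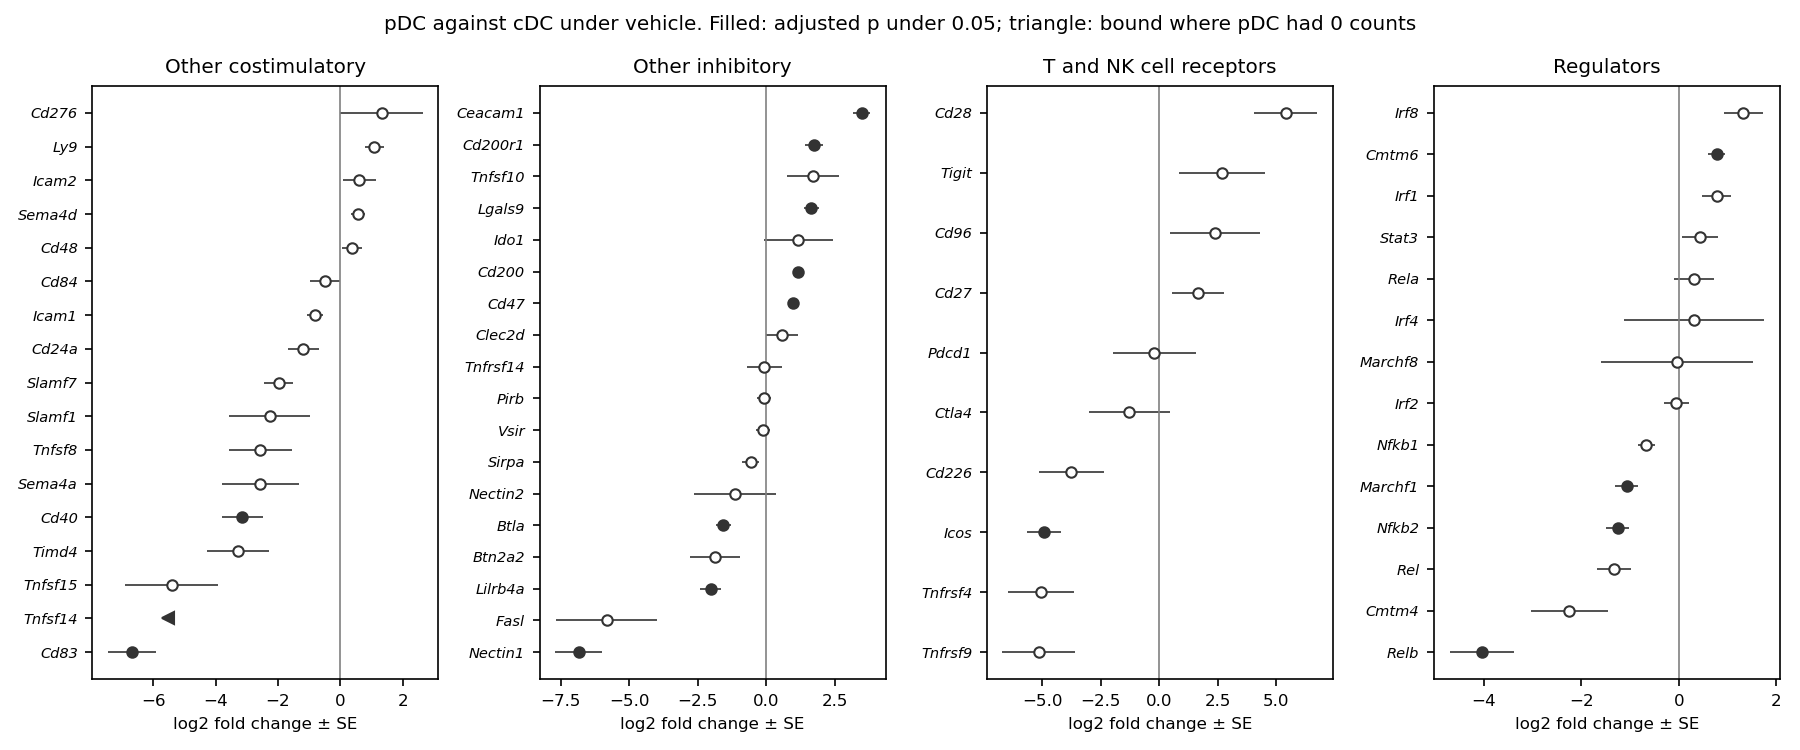
Log2 fold changes ± SE of pDC against cDC in vehicle for the tested genes of the 4 lists, except 1 regulator that is not drawn. Filled symbols passed at an adjusted p under 0.05, and the triangle of Tnfsf14 is a bound. The costimulatory panel has filled symbols on the negative side alone, and the inhibitory panel on both sides.

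Of the 15 regulators of the members, 1 was higher and 3 lower in vehicle pDC, beside 5.01% and 4.71% of all genes, with a median log2 fold change of -0.04. Relb, an NF-kB subunit gene of DC maturation, was 16.5-fold lower in pDC (log2 fold change -4.05 ± 0.66, adjusted p = 0.0168), at 28.8 ± 8.31 CPM in pDC and 475 ± 43.2 CPM in cDC (SD, n = 2 each). Nfkb2, the gene of its partner p100, was lower by 2.39-fold (adjusted p = 0.0236), as was Marchf1, a ubiquitin ligase that removes CD86 and MHC class II from the surface (2.1-fold, adjusted p = 0.0446). Cmtm6, which codes for a protein that stabilises PD-L1, was higher by 1.72-fold in pDC (adjusted p = 0.0409). Under panobinostat 0 were higher and Nfkb1, Nfkb2, Rel, Relb and Marchf1 were lower, beside 7.76% and 10.2% of all genes. The median was -0.48, and that of all genes -0.18.

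Receptors that bind the members were read in DC libraries too. Icos had 0.192 ± 0.00884 CPM in panobinostat pDC and 27.1 ± 6.36 CPM in panobinostat cDC (SD, n = 2 each). It was lower in pDC in both treatments (136-fold with panobinostat, adjusted p = 0.00463, and 30.5-fold with vehicle, adjusted p = 0.0117). The panobinostat pDC level rested on 4 and 2 counts, where 3 counts in replicate 2 are 0.279 CPM, so its SD and fold are no precise measure. Icos was the only one of these 10 genes called in vehicle, where 9.73% of all genes were. Under panobinostat 1 of the 10 was higher and 3 were lower in pDC, beside 7.76% and 10.2% of all genes. Under panobinostat Cd28 was higher in pDC by 62.3-fold (adjusted p = 0.0335), at 72.4 ± 2.74 CPM in pDC and 1.16 ± 1.51 CPM in cDC. Its log2 fold change was 5.96, and 5.01 and 9.45 without replicate 1 and without replicate 2 of panobinostat cDC. Tnfrsf4 and Tnfrsf9 were lower, but Tnfrsf9 had 0 counts in panobinostat pDC, entered the tested set through cDC and could only be lower. Of the 28 genes of the lists called under panobinostat, 6 passed with each library left out in turn (Cd83, Cd200, Nectin1, Ceacam1, Icos and Nfkb2), and of the 16 called in vehicle Ceacam1 did. Nectin1, as stated above, entered the tested set through cDC and could only be lower, so its place among them is no result. How many of all called genes passed in this way was not computed. Cd3e, a T cell gene, had 0 and 0 counts in panobinostat pDC, 3 and 24 in vehicle pDC, 5 and 43 in panobinostat cDC and 12 and 50 in vehicle cDC.

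In no list did a gene pass the test for panobinostat in pDC, in cDC or for the difference, where 0.0913%, 0% and 0.00702% of all genes did. The smallest p values in pDC belonged to Nfkb2 (log2 fold change -2.13 ± 0.24, adjusted p = 0.0655) and Sema4d (-1.28 ± 0.23, adjusted p = 0.132). Nfkb2 passed in 4 of 16 alternatives: without replicate 1 of panobinostat pDC, without replicate 2, without the filter and with DESeq2. Sema4d passed in 2 of them, and Cd84 and Tnfsf8 in 3. Nfkb2 averaged 28.4 ± 1.74 CPM in panobinostat pDC and 124 ± 28.1 CPM in vehicle pDC (SD, n = 2 each), without overlap. In cDC the list gene with the smallest p was Ceacam1 (log2 fold change -1.09 ± 0.28, unadjusted p = 0.00693, adjusted p = 1), and among the regulators Cmtm6 stood at 0.51 ± 0.17 (adjusted p = 1).

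As a description, genes with the most similar profile were sought for the 4 members with the highest mean level. Pearson's r of log2 CPM over the 8 libraries was taken against 8187 candidates whose mean log2 CPM reached 3. These libraries share cell type and treatment, so a gene that separates pDC from cDC reaches a high r. Icosl was most like Traf1 (0.998), Relb (0.997) and Swap70 (0.993). Cd86 was most like C9orf72 (0.996), Trpm2 (0.994) and Tcp1 (0.992), and Havcr2 like Soat1 (0.997), Cnn2 (0.996) and Shtn1 (0.996). Cd274 was most like Dusp16 (0.999), Slc25a13 (0.999) and Vps9d1 (0.998).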

How the data were processed

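Messenger RNA libraries of sorted spleen DC were prepared from Trizol-isolated RNA using a NEBNext low-input kit, per the labels' protocols. Per the submitters' processing notes, the tools were bcl2fastq (2.17.1.14), FastQC (0.11.6), cutadapt (2.1), HISAT2 (2.1.0), featureCounts of Subread (2.0.0) and limma, with build mm10. The authors deposited a table of raw read counts, 1 row per Entrez gene ID. Not given in the sources used here are the annotation, the strand setting and what was done with multi-mapped reads. Symbols were matched for 25275 of 27179 IDs with a RefSeq table of GRCm38.p6. Exon lengths are of the GENCODE annotation of GRCm38.

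Counts were tested in R (4.3.3) with edgeR (4.0.16). The steps were filterByExpr (minimum count 10, total 15), TMM scaling and 1 coefficient per group over all 8 libraries. The quasi-likelihood F test was adjusted by Benjamini-Hochberg at 0.05. There were 4 residual and a median of 2.32 prior degrees of freedom. SE was derived from the test statistic. CPM used TMM-scaled library sizes, and log2 CPM a prior count of 2. Where a group had 0 counts, 3 counts over the group served as the floor of a bound. No molecular identifiers are recorded, so floors cover counting error only. Zeros in replicate 2 of panobinostat pDC may hide higher levels than a floor allows.

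The alternatives were RLE or no composition scaling, no or a stricter filter (at least 30 counts), DESeq2 (1.42.0), the replicate block, the compared libraries alone, and each library left out. Deviations of same-number libraries from their group means correlated between groups with 0.146 to 0.489 (6 distinct values), all above 0.1. The replicate numbers of the labels were therefore taken to pair the samples in the replicate block and in the ratios of same-number replicates. The labels do not say what a number shares. The main fit had no term for the replicate number, so its errors and p values are unpaired. The members and lists were chosen with earlier results of these data known. Genes of the lists were named where they passed the test, and otherwise from the 3 of each list with the smallest p, not all of which are given; 1 gene of the regulator list is not reported here by name.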

Additional observations from a re-analysis of the deposited data

Results flagged for a closer look

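Genes are given here where both panobinostat libraries moved one way against both vehicle libraries in pDC and the opposite way in cDC. The difference of effects, pDC minus cDC on the log2 scale, was tested in edgeR and did not pass for any of them with all libraries. How many of all tested genes moved in this way was not computed, so these genes are not set apart from the rest. In pDC 15.7% of all tested genes lay above and 26.5% below vehicle, and in cDC 22.2% and 18.8%. Of the members, Pdcd1lg2 moved in this way (-2.82, below vehicle in pDC and above it in cDC). Among genes of the lists, Timd4 (fitted value -8.61), Btn2a2 (fitted value -4.92) and Nectin2 (-1.89) were below vehicle in pDC and above it in cDC. Cmtm4 (2.41), Clec2d (1.76) and Cd200 (1.11) were above vehicle in pDC and below it in cDC. Cmtm4 rested on few reads, 10 and 11 counts in panobinostat pDC and 3 and 5 in vehicle pDC. Timd4 and Btn2a2 had 0 counts in both panobinostat pDC libraries, so their fitted values depend on the prior count and are no measure of size. Against a floor of 3 counts over the group, panobinostat pDC were at least 6.996-fold below vehicle pDC for Timd4 and at least 1.35-fold below for Btn2a2. Pdcd1lg2 and Nectin2 had 0 counts in replicate 2 of panobinostat pDC, the library in which 15.8% of genes with 200 to 500 counts in replicate 1 were at 0. The part of that library in these differences was not tested further.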

How the results depend on the processing

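Counts of genes that passed moved with the libraries and the tool. Leaving out 1 library at a time gave 0 to 8227 genes and 0 to 6 members for panobinostat in pDC, and 0 to 6457 genes and 0 to 6 members for the difference of effects. For pDC against cDC it gave 346 to 9796 genes and 1 to 9 members under panobinostat, and 288 to 5531 genes and 1 to 9 members in vehicle, Tnfsf4 and Cd70 counted. In pDC, panobinostat called 2 genes with RLE scaling, 68 without the filter and 914 with DESeq2. It called 0 with the replicate block, 0 with the pDC libraries alone and 0 with both. In cDC it called 15 genes with DESeq2 and 106 with the cDC libraries alone and the block. The difference of effects called 0 genes with RLE scaling, library size scaling or the replicate block, 5 without the filter and 290 with DESeq2. Under panobinostat, pDC against cDC called 4495 genes and 8 members with DESeq2, and 161 genes and 1 member with the compared libraries alone. The 8 members included Cd70, which could only be lower in pDC, and did not include Pvr. In vehicle it called 2880 genes with DESeq2, and 4491 genes and 7 members with the compared libraries alone. The median of all genes for this comparison was 0.02 with TMM and -0.11 with RLE scaling.

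Signs of the following log2 fold changes turned. With the replicate block, which uses the pairing of the numbers, Cd274 in cDC became 0.0499, Tnfsf4 in cDC -0.0301 (-0.025 in the cDC libraries alone), Icosl for the difference -0.023 and Pvr in vehicle -0.036, and Cd80 became -0.034 in the pDC libraries alone. Beside the losses of Pdcd1lg2 in vehicle and Cd70 under panobinostat, the block changed no member's call. Library size scaling gave -0.067 for Icosl (difference), -0.096 for Tnfsf4 and -0.043 for Tnfsf9 in cDC. Pvr in vehicle was -0.059 with RLE scaling and -0.059 with DESeq2. With each library left out in turn, the difference of effects ranged from -2.11 to 1.85 for Cd80, -0.34 to 1.89 for Cd86 and -0.82 to 0.56 for Icosl. In pDC the ranges were -2.13 to 1.85 (Cd80), -0.071 to 2.18 (Cd86) and -1.34 to 0.063 (Icosl). In cDC they were -0.13 to 0.12 (Cd80), -0.0083 to 0.60 (Cd86), -0.30 to 0.14 (Cd274), -1.01 to 0.80 (Tnfsf4), -0.043 to 0.27 (Tnfsf9), -0.26 to 2.23 (Cd27) and -2.56 to 1.88 (Cd28). Pvr in vehicle ranged from -0.21 to 0.26. The cause was not tested. Of 1929 values of genes under alternatives, 1576 kept direction and side of the threshold. Depth limits Tnfsf4, Cd70 and, in pDC, Cd80 and Pdcd1lg2, which rest on few reads.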
